A study of Mus musculus with 12 samples.

Results

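The cell cycle genes described here are 40 columns of the count table, out of 24489 gene columns, that were picked by name as known regulators or effectors of the cycle. They were divided by textbook role into G1 cyclins and kinases (5 genes), G1/S regulators (4), replication licensing factors (7), DNA synthesis enzymes (3), mitotic cyclins with Cdk1 (4), mitotic kinases and checkpoint proteins (6), chromosome, kinetochore and spindle proteins (8) and inhibitors (3). The rule used no measured value, although it was written with earlier results of these data known, and all 40 had a column in the table. The question was how many cells carried these transcripts, and at which level, among the glia, mesenchyme, neurons and hair cells of the developing mouse cochlea.

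Cochlear cells expressing the red fluorescent protein tdTomato were sorted by flow cytometry and sequenced 1 cell per well with Smart-seq2, a full-length RNA-seq protocol without molecule barcodes. The 12 plates, each counted here as 1 sample of 384 wells, covered 6 stages: E14.5 (2 plates), E15.5 (2), E16.5 (3), E17.5 (1), E18.5 (2) and P3 (2). The labels give PVcre;Ai14 for 11 plates and TrkCcre for E14.5 replicate 2, so tdTomato marked cells in which the parvalbumin or the TrkC (Ntrk3) driver had been active, and no plate came from animals without the reporter. For E14.5 replicate 1 the label names the parvalbumin driver, whereas the study's text gives the Ntrk3 driver at that age. The plates belong to 4 plate series by name (SS2_15, SS2_18, SS2_19 and SS2_20). All of E14.5, E15.5 and E17.5 and 1 plate of E16.5 are SS2_20, the other 2 plates of E16.5 are SS2_18, and E18.5 (SS2_19) and P3 (SS2_15) each fill a series of their own, so that for these 2 stages age and plate series cannot be told apart.

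Progression through the cycle is driven by cyclins and the kinases they activate. D-type cyclins with Cdk4 or Cdk6 inactivate the retinoblastoma protein and release E2F factors, which switch on genes for DNA replication, and cyclin A, cyclin B and Cdk1 then carry the cell through mitosis. In the cochlea, spiral ganglion neurons (SGNs) and hair cells (HCs) leave the cycle early and stay post-mitotic, while Schwann and satellite glia and the otic mesenchyme (OM) that surrounds the duct keep dividing, and the kinase inhibitor encoded by Cdkn1b is known for its role in the exit of hair cell precursors.

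The sequences upstream of 5 members are printed because the genes of mitosis (Mki67, Cdk1 and Cdc20) and of replication licensing (Mcm6) shared letters there with others of their role, and Cdk4, which is present in nearly every cell, is shown for contrast. Each is the 250 bases before the annotated transcription start in GRCm38.p6, taken from RefSeq and written 5′ to 3′ on the strand of the gene. Capitals mark any match on either strand to the cell cycle homology region (TTTGAA), to the CCAAT box (CCAAT, or ATTGG when read on the opposite strand) or to an E2F form (TTTGGCGC, TTTCCCGC, TTTGCCGC or TTTCGCGC). In Mcm6 the first capital run holds E2F forms of both strands that overlap each other.
Mki67, chr7:135716380-135716629, minus strand: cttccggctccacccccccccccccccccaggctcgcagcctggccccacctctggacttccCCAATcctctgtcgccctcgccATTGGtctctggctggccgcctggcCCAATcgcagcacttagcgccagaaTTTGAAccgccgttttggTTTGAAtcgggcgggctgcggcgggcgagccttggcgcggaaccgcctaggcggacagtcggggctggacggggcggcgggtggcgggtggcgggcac
Cdk1, chr10:69352913-69353162, minus strand: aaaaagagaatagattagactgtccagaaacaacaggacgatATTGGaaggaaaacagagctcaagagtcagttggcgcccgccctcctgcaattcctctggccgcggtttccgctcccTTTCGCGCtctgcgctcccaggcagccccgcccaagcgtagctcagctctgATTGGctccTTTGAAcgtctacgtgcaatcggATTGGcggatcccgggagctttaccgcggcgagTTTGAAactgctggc
Cdc20, chr4:118437344-118437593, minus strand: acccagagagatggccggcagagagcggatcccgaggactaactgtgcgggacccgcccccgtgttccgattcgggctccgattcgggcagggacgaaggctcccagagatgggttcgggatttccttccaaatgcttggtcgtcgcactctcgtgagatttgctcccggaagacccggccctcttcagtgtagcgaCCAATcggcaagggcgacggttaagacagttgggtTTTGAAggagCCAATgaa
Mcm6, chr1:128359706-128359955, minus strand: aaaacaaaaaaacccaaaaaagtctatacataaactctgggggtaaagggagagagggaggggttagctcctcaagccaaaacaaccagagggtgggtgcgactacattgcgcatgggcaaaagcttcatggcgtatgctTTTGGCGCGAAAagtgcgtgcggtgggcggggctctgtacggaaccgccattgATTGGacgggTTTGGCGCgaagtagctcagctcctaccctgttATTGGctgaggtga
Cdk4, chr10:127063285-127063534, plus strand: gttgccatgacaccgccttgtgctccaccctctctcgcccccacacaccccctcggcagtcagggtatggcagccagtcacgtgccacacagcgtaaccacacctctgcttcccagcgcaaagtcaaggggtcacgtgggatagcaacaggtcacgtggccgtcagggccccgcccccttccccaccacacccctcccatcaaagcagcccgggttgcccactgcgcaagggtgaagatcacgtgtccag

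Mki67, Cdk1 and Cdc20, which act in mitosis, each held at least 1 homology region and several CCAAT boxes, Mcm6 held E2F forms and CCAAT boxes, and Cdk4 held none of these letters. Windows that also included the 50 bases after the start were searched on both strands for every gene of the RefSeq table of windows, which is not limited to genes of the count table. Of the 40 members 34 had a window, and Aurkb, Mcm4, Ccna2, Ccne2, Ccnd1 and Ccnd2 did not. TTTGAA was found in 12 of the 16 genes with a window in the 3 mitotic roles (75.0%), against 20.2% of all 27025 genes with a window, and CCAAT in 14 of the 16 (87.5%) against 41.1%. An E2F form was found in 5 of 6 licensing genes (83.3%) against 2.6% of all genes. Over all 34 members the shares were 38.2% for TTTGAA, 73.5% for CCAAT and 20.6% for an E2F form. A match is a description of letters and not a binding site.

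After filters on genes detected and spike-in share, 4226 of 4608 wells were kept, with 232473 to 1092427 median reads per cell on the 12 plates. Median genes per cell were 4691 to 4983 on the SS2_20 plates against 8426 to 9630 on the plates of the other series. Cells were clustered within each stage, E17.5 and E18.5 together, with 165 cell cycle genes kept out of the clustering, and 4118 fell into clusters named from their markers: 2319 SGN-like, 1173 glia-like, 531 OM-like and 95 HC-like cells. Counts were summed per class and plate, which gave 12 SGN-like sums (60 to 376 cells), 9 glia-like sums (5 to 255), 10 OM-like sums (5 to 170) and 6 HC-like sums (3 to 37). Levels of members are given in CPM, counts relative to the total of a sum after TMM scaling of the totals (summed markers, floors and the values of cells split by glial markers use the plain total), which compare classes for 1 gene but not genes with each other, since longer transcripts give more reads. Per the study's text the cells of a plate were pooled from several animals, so that a plate is not 1 animal. Whether plates of a stage came from separate pools is not given in the labels, and spread between plates may be technical.

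The marker lists had also named the clusters, so high markers of its own class in a sum are no independent support for its label. Sums of 3 classes on the 6 SS2_20 plates carried their own lists in full. All 10 SGN markers were at 10 CPM or more in SGN-like sums (15081 to 17724 CPM summed), all 12 glial markers in glia-like sums (10922 to 20371 CPM) and all 12 OM markers in OM-like sums (7269 to 23698 CPM). Glia-like sums of these plates also carried 6 of the 12 OM markers, 3329 to 6845 CPM summed, with Postn highest. Other sums went against their labels. The OM-like sums of the SS2_18 and E18.5 plates (5 to 11 cells) carried all 10 SGN markers at 4058 to 10623 CPM, and glial markers at 471.9 to 3764 CPM on the SS2_18 plates and 7665 to 11192 CPM at E18.5. The 5 OM-like cells of E18.5 replicate 2 also had a mean of 5928 CPM of blood or immune markers (median 0). The glia-like sums of these plates were mixed too. Those of E18.5 (5 and 6 cells) held all 10 SGN markers at 1438 to 2436 CPM and 8672 to 8754 CPM of OM markers, and that of SS2_18 (5 cells) 9 of the SGN markers at 2983 CPM summed, beside 13900 to 18792 CPM of glial markers. The counts of called members for glia-like and OM-like sums are therefore given with these sums and on the SS2_20 plates alone. Detection of members beside Mki67 and the lists of other cell cycle genes are given only with them. The part of the foreign markers in the results was not tested.

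Of the HC-like cells 69 were in the 2 sums of E18.5, with all 12 HC markers at 8447 to 9185 CPM summed, although all 12 markers of the surrounding otic epithelium were present too (8945 to 13711 CPM), and OM markers at 329.2 to 2090 CPM (Lum highest). The 6 cells of E16.5 replicate 1 had a median of 6263 CPM of HC markers, 5828 CPM of otic epithelium markers and 1962 CPM of SGN markers. The cells of E16.5 replicate 2 had a median of 237 CPM of HC markers against 18630 CPM of SGN markers. Those of E17.5 had a median of 544 CPM of HC markers, 11800 CPM of otic epithelium markers and 1226 CPM of OM markers, and those of E16.5 replicate 3 had 349.1 CPM of HC markers. HC-like values are therefore given also for E18.5 alone.

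Glial markers were also present in SGN-like cells, by an amount that differed between plates. On the SS2_20 plates SGN-like sums held 31.7 to 190.3 CPM of them, on the SS2_18 plates 1045 to 1338 CPM, at E18.5 3957 to 4157 CPM (11 of the 12 markers at 10 CPM or more, Fabp7 highest) and at P3 3160 to 3545 CPM. The share of SGN-like cells with more than 100 CPM of summed glial markers was 12.2%, 28.0%, 69.1% and 76.3% in that order. The counts of called members at E18.5 and P3 are given with and without these cells. The study derived a list of glial genes from correlation with Sox10 at E18.5 and took it out of its own analysis as glial contamination. That list holds 35 of the 40 members. It was chosen on these samples and is no independent evidence on the members.

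Genes of every role were higher in glia than in neurons. In glia-like against SGN-like sums 38 of the 40 members were higher and none lower (edgeR's quasi-likelihood test with plate as a block, adjusted p under 0.05 over 16655 genes), where 22.2% of all genes tested were called higher and 21.6% lower. Their median difference was 3.81 on the log2 scale, against 0.04 for all genes, and single members ranged from -0.27 to 5.71. Cdkn1a and Cdkn1b, 2 of the 3 inhibitors, were the members that did not pass the test. A sum cannot tell apart more cells with a transcript from more RNA per cell, which is why shares of cells stand beside the levels. Differences given for single members come from this fit over 10 plates, which includes SGN-like sums rich in glial markers, while the plate ranges beside them are those of the 6 SS2_20 plates, so that the difference is not the gap between these ranges. The count of 38 was the same whichever of the 10 plates was left out, on the SS2_20 plates alone (median 4.6, background 22.7%) and without SGN-like cells that carried glial marker RNA (median 4.76, background 24.2%).

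Mesenchyme showed the same order. In OM-like against SGN-like sums 36 members were higher and none lower, against 19.6% and 20.5% of all genes, with a median difference of 3.04 (all genes -0.07). Ccne2 (0.75), Cdkn1a (-0.63), Cdkn1b (-0.10) and Cdkn2c (2.48) did not pass. On the SS2_20 plates alone, without the OM-like sums that carried neuronal markers, 38 passed with a median of 4.52, where 21.4% of genes were called higher. Leaving out single plates gave 34 to 36. The plot of log2 differences sets the 3 comparisons with neurons side by side for every member.

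**Figure D1:**
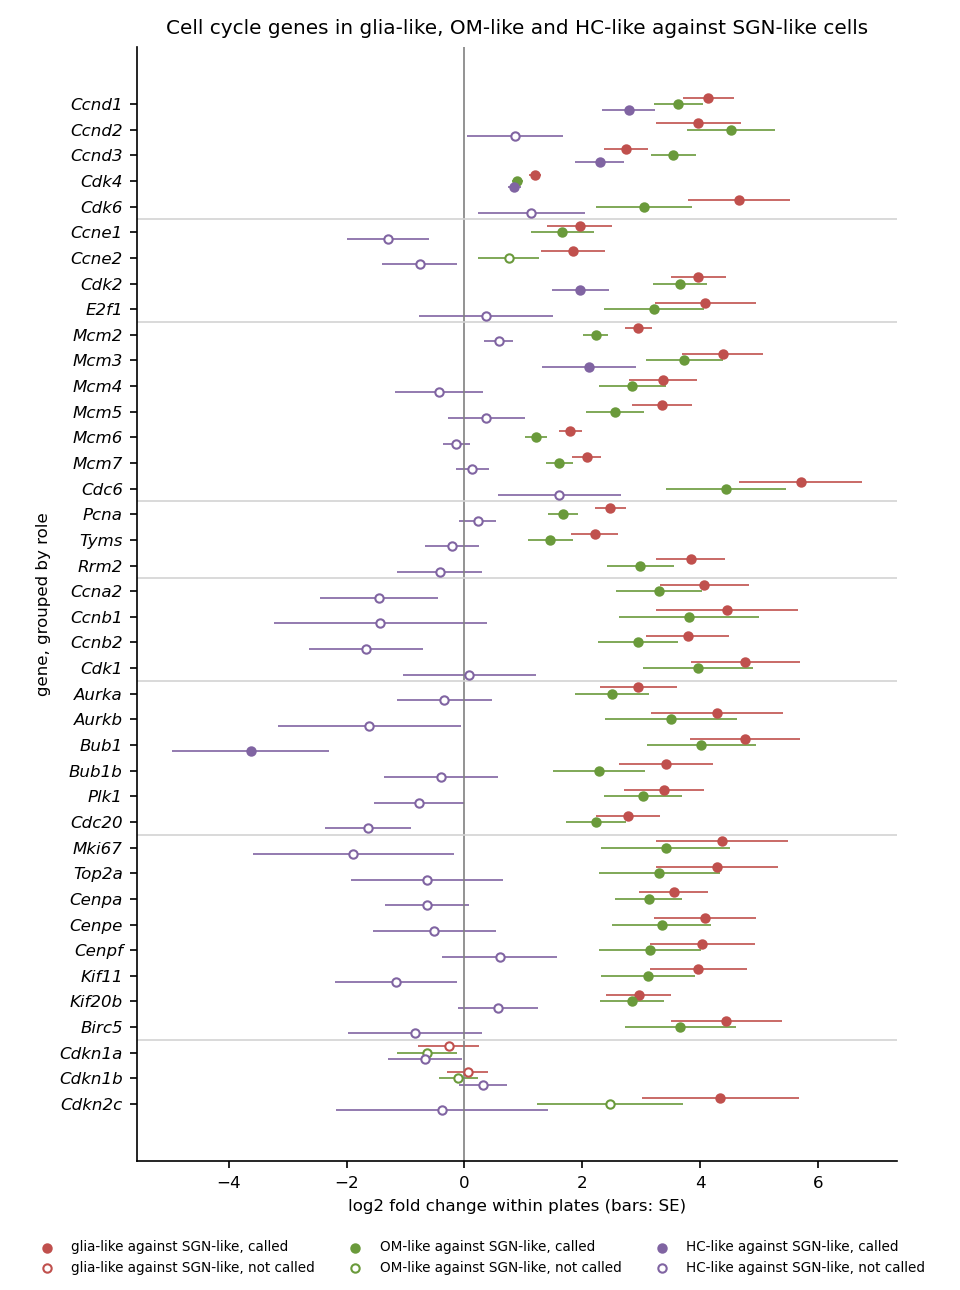
Log2 difference (± SE) of each of the 40 cell cycle genes in glia-like, OM-like and HC-like sums against SGN-like sums of the same plates, by role, from the edgeR fit over 35 sums of 10 plates. Filled symbols passed the test. Glia-like and OM-like symbols sit to the right of 0 for nearly every gene, with Cdkn1a (-0.27 and -0.63) and Cdkn1b (0.05 and -0.10) close to 0, and HC-like symbols spread to both sides.

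Among the G1 genes all 5 were higher in glia-like (median 3.97) and in OM-like sums (median 3.55) than in SGN-like sums. Ccnd2, a D-type cyclin, ran from 0.0512 CPM to 44.5 CPM in SGN-like sums of the 6 SS2_20 plates (median 16.54), from 442 to 607 in glia-like sums (median 485) and from 896 to 1088 in OM-like sums (median 959). No plates of the 3 classes overlapped, and OM-like sums were the highest. The difference from neurons was 3.97 ± 0.71 (SE, adjusted p = 8.02e-05) in glia and 4.52 ± 0.75 in OM. Ccnd1, another D-type cyclin, ran from 2.48 to 20.1 CPM (median 6.31) in SGN-like sums, from 206 to 254 (median 229.6) in glia-like sums and from 94.7 to 329 (median 178) in OM-like sums. Glia-like plates lay within the range of OM-like plates, and both were above every SGN-like plate. The differences on the log2 scale were 4.14 ± 0.44 (adjusted p = 9.94e-08) and 3.63 ± 0.42 over the 10 plates, and 5.14 and 4.73 on the SS2_20 plates alone.

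Ccnd3, the third D-type cyclin, had 8.12 to 13.3 CPM in SGN-like sums (median 9.92), 91.4 to 131 in glia-like sums (median 99.2) and 172 to 281 in OM-like sums (median 245), without overlap between the classes. It was higher than in neurons by 2.74 ± 0.38 in glia and 3.55 ± 0.38 in OM. Cdk4, a catalytic partner of these cyclins, was present in nearly every cell of every class: 98.0% of SGN-like, 97.9% of glia-like and 98.9% of OM-like cells of the SS2_20 plates had a read at equal depth. Its levels still differed, with 248 to 540.2 CPM (median 405), 721 to 1128 (median 908) and 628 to 1079 (median 848) in the same order, so that neurons did not overlap with the other classes. The difference of glia-like from SGN-like sums was 1.20 ± 0.09 (2.29-fold, adjusted p = 2.25e-09). Cdk6, the other partner, was detected in 0.967% of SGN-like cells, 59.8% of glia-like cells and 38.6% of OM-like cells.

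Of the 4 G1/S regulators all were higher in glia than in neurons (median 2.96) and 3 in OM. Cdk2, the partner of cyclin E and cyclin A, ran from 0.767 to 20.8 CPM (median 5.19) in SGN-like sums, from 127 to 167 (median 159) in glia-like sums and from 115 to 208 (median 156) in OM-like sums. The glia-like and OM-like ranges overlapped and neither reached that of the neurons, the difference from them being 3.97 ± 0.47 in glia. Ccne1, a cyclin that starts S phase, was closer, at 4.75 to 21.8 CPM (median 8.34) in SGN-like, 25.04 to 67.9 (median 47.6) in glia-like and 38.6 to 67.7 (median 51.3) in OM-like sums. Its difference in glia was 1.95 ± 0.55.

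The 7 licensing factors, 6 of them subunits of the MCM helicase that is loaded onto replication origins, were all higher in glia (median 3.35) and in OM (median 2.56) than in neurons. Cdc6, which loads the helicase, had a fitted difference of 5.71 in glia, but its SGN-like sums of the SS2_20 plates held only 0 to 13 reads, so that no size is read from it. Mcm6 was seen in 57.5% of SGN-like, 62.0% of glia-like and 65.0% of OM-like cells. It ran from 77.8 to 125 CPM (median 94.97) in SGN-like, from 259.6 to 484 (median 402) in glia-like and from 231 to 331 (median 304) in OM-like sums, and neurons again did not overlap. The difference was 1.80 ± 0.20 (adjusted p = 1.8e-07) in glia and 1.22 ± 0.19 in OM. Mcm5 was at 16.01 to 30.6 CPM (median 20.5) in neurons, 170 to 386 (median 277) in glia and 102 to 274 (median 189.7) in OM, and its difference in glia was 3.35 ± 0.51 (adjusted p = 1.2e-05).

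All 3 DNA synthesis genes were higher in both classes. Pcna, the sliding clamp of the replicative polymerases, was seen in 63.1% of SGN-like and 79.3% of glia-like cells, and its level was 21.2 to 29.7 CPM (median 26.7) in SGN-like, 126 to 191 (median 158) in glia-like and 84.6 to 126 (median 100.2) in OM-like sums. Neurons lay below both, by 2.47 ± 0.26 for glia. Rrm2, a subunit of ribonucleotide reductase, ran from 1.72 to 10.48 CPM (median 7.21) in neurons, from 67.2 to 193 (median 142) in glia and from 76.4 to 132 (median 117) in OM. Its difference in glia was 3.84 ± 0.58.

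Each of the 18 genes of the 3 mitotic roles had a lower share of cells in neurons than in glia or OM on the SS2_20 plates. Such shares were not counted over all genes, so this count has no background beside it. The mean shares ran from 0.977% (Bub1) to 17.64% (Ccna2) in SGN-like cells, from 18.04% (Plk1) to 41.9% (Top2a) in glia-like cells and from 17.8% (Kif11) to 37.5% (Cdk1) in OM-like cells. Mki67, which encodes the chromosome surface protein Ki-67, ran from 0.124 to 11.8 CPM (median 1.39) in SGN-like sums, from 278 to 405 (median 301) in glia-like sums and from 156 to 353 (median 256) in OM-like sums. At equal depth it was seen in 3.53% ± 2.8 of SGN-like cells (SD, n = 6 plates), 37.3% ± 6.6 of glia-like cells and 25.9% ± 4.4 of OM-like cells. At E18.5 it was seen in 27.4% of SGN-like and 8.53% of HC-like cells. Of these SGN-like cells 69.1% had more than 100 CPM of glial markers. In the rest the share with Mki67 lay below that of HC-like cells, as given further on. The HC-like cells were not split in this way, and 44 of their 69 cells also had more than 100 CPM of glial markers. No order of the 2 classes is therefore read for Mki67. The differences of the levels from neurons on the SS2_20 plates alone were 7.30 ± 1.03 in glia and 6.80 in OM, against SGN-like sums with only 2 to 204 reads of Mki67, so that their size rests on few reads. Over the 10 plates, with the E18.5 neurons included, they were 4.38 ± 1.12 (adjusted p = 0.00243) and 3.42 ± 1.09, the second of which was lost when E16.5 replicate 3 was left out. Top2a, the topoisomerase that untangles chromosomes, ran from 0.297 to 13.2 CPM (median 3.92), from 340 to 521 (median 428) and from 184 to 419.9 (median 312) in the same order. Glia-like and OM-like plates overlapped for both genes, and SGN-like plates were far below.

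Cdk1, the mitotic kinase, had 0.307 to 2.32 CPM (median 1.42) in SGN-like, 141 to 284 (median 220.1) in glia-like and 132.6 to 196 (median 169.6) in OM-like sums. Its difference in glia was 4.77 ± 0.93 (adjusted p = 1.82e-04) over the 10 plates and 7.26 on the SS2_20 plates alone. Cdk1 and the mitotic cyclins were all higher in glia (4 of 4, median 4.27). Ccna2, cyclin A, had 3.54 to 9.47 CPM (median 4.72), 209 to 352 (median 233) and 157 to 288 (median 228). Bub1b, a spindle checkpoint kinase, had 0.186 to 19.5 CPM (median 4.75), 94.8 to 154 (median 117) and 47.2 to 118 (median 98.8). For Bub1b the difference of OM-like from SGN-like sums was 2.28 ± 0.78 and did not pass without E14.5 replicate 1, E14.5 replicate 2, E15.5 replicate 2 or E16.5 replicate 3. Cdc20, which activates the ubiquitin ligase that ends mitosis, had 2.72 to 15.6 CPM (median 10.3), 70.5 to 157 (median 101) and 63.8 to 143.8 (median 83.1). For all 3 genes no SGN-like plate reached a glia-like or OM-like plate.

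The inhibitors were the exception. Cdkn1a ran from 37.1 to 156 CPM (median 57.4) in SGN-like, from 42.1 to 164 (median 61.7) in glia-like and from 2.09 to 170.2 (median 31.5) in OM-like sums, with ranges that overlapped almost fully. Its difference of glia-like from SGN-like sums was -0.27 ± 0.52 (adjusted p = 0.714). Cdkn1b ran from 19.3 to 30.8 CPM (median 24.4), from 26.0 to 43.2 (median 28.8) and from 24.7 to 32.9 (median 27.5), which overlapped too, with a difference of 0.05 ± 0.34 (adjusted p = 0.917). A p that misses the threshold does not show equal levels. Cdkn2c, an inhibitor of Cdk4 and Cdk6, followed the other roles: it was listed at 0 in the median SGN-like plate and reached 0.38 CPM, against 6.18 to 22.8 CPM (median 12.1) in glia-like sums, and it was higher in glia by 4.35 ± 1.33 (adjusted p = 0.00961).

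Shares of cells with a read followed the levels. They were counted after each cell had been thinned to 100000 reads, which left out 31 SGN-like, 92 glia-like, 13 OM-like and 1 HC-like cells, at median depths before thinning of 349415, 249964, 273697 and 324061 reads. On the SS2_20 plates the mean share was higher in glia-like than in SGN-like cells for 37 of the 40 members, the same number as without thinning or with at least 3 reads. Shares were not counted over all genes, so the 37 cannot be set against the bulk of genes. Ccnd2 was seen in 11.98% ± 7.3 of SGN-like, 86.8% ± 4.9 of glia-like and 90.4% ± 2.5 of OM-like cells. Cdkn1a had the opposite order, at 61.1% ± 18.3, 39.3% ± 10.7 and 29.2% ± 22, and Cdkn1b was also highest in neurons, at 59.1% ± 10.7, 45.9% ± 5.7 and 51.7% ± 3.9. The CPM of neither passed the test, so that no order is read from these shares. As a background, 4 hair cell genes were counted in the SGN-like cells of these plates. Otof had a read in 4.53% of them, Pou4f3 in 2.26%, Gfi1 in 0.392% and Atoh1 in none. Mki67 (3.53%) and Cdk6 (0.967%) lie below the first and above the last 2, so whether such shares are background depends on the gene chosen, and shares up to 4.53% are not read as expression. In glia-like and OM-like cells the 4 genes had at most 0.609% and 0.215%.

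**Figure D2:**
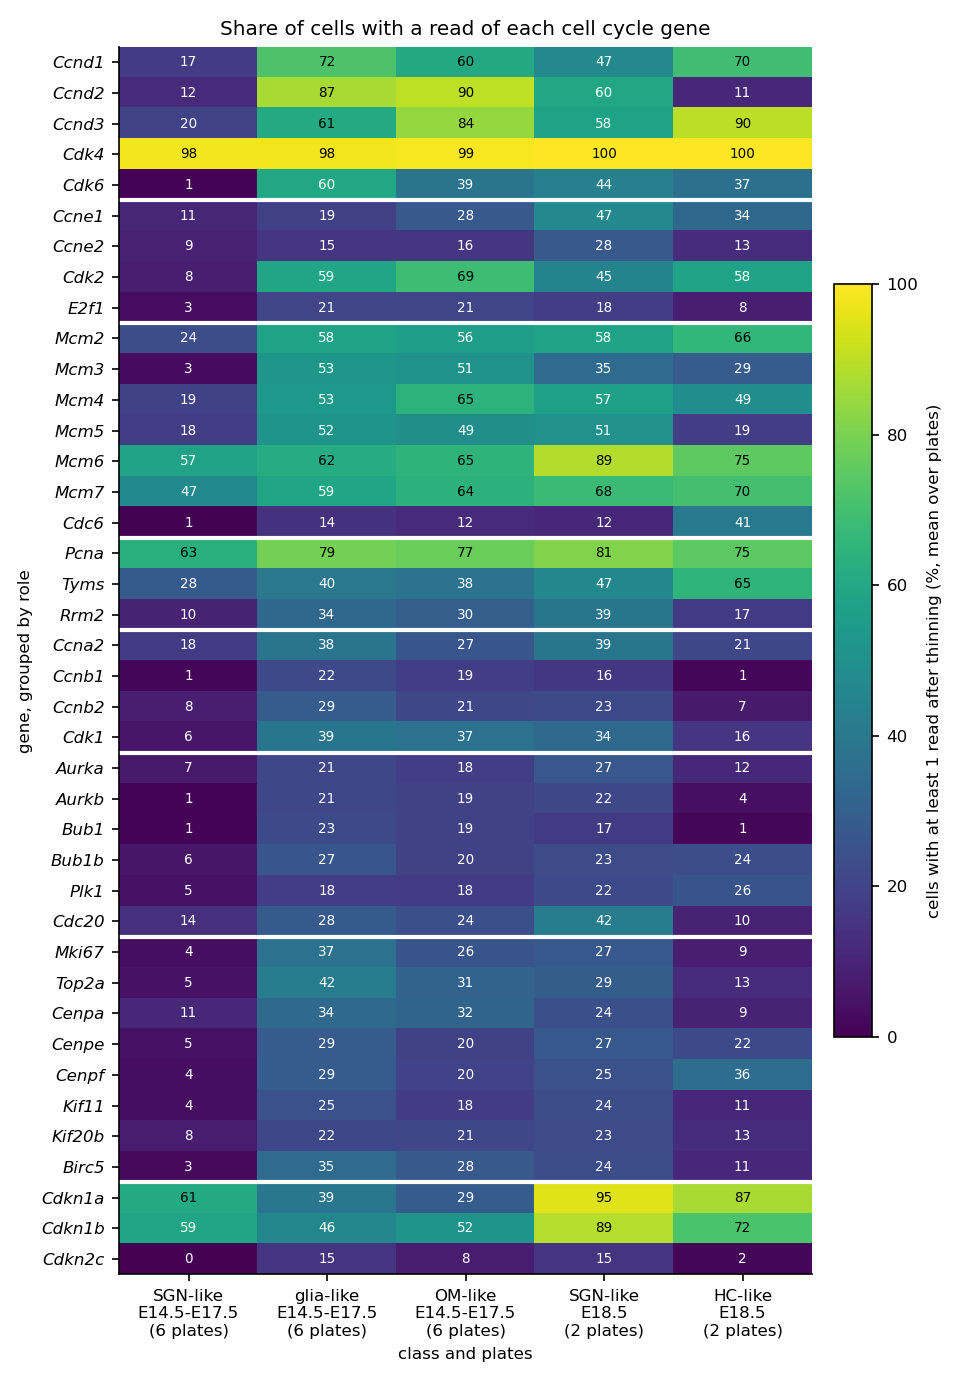
Percent of cells with at least 1 read of each of the 40 cell cycle genes after thinning to 100000 reads, as the mean over plates, in SGN-like, glia-like and OM-like cells of the 6 SS2_20 plates and in SGN-like and HC-like cells of the 2 E18.5 plates. Mki67 goes from 3.53% in SGN-like to 37.3% in glia-like cells of the SS2_20 plates and is 27.4% in SGN-like cells of E18.5, while Cdk4 is above 97% in all 5 columns. Of the SGN-like cells of E18.5, 69.1% had more than 100 CPM of glial markers, and Mki67 was seen far less often in the others.

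Detection within single cells separated the classes further. The 21 members that act from S phase to mitosis were counted in each thinned cell. On the SS2_20 plates 10 or more of them were seen in 26.9% ± 6.34 of glia-like cells (SD, n = 6 plates, 274 of 1065 cells) and in 19.4% ± 3.21 of OM-like cells (96 of 489 cells). No SGN-like cell reached 10 (0 of 425 cells, which allows a share of up to 0.706%). The count of 10 is a point on a range: 67 glia-like, 28 OM-like and 1 SGN-like cells had 8 to 11 members. In glia-like cells the share was 34.0% and 30.8% at E14.5, 26.9% and 31.2% at E15.5, 19.6% at E16.5 and 18.9% at E17.5. The last 2 plates were below the other 4, which was not tested.

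**Figure D3:**
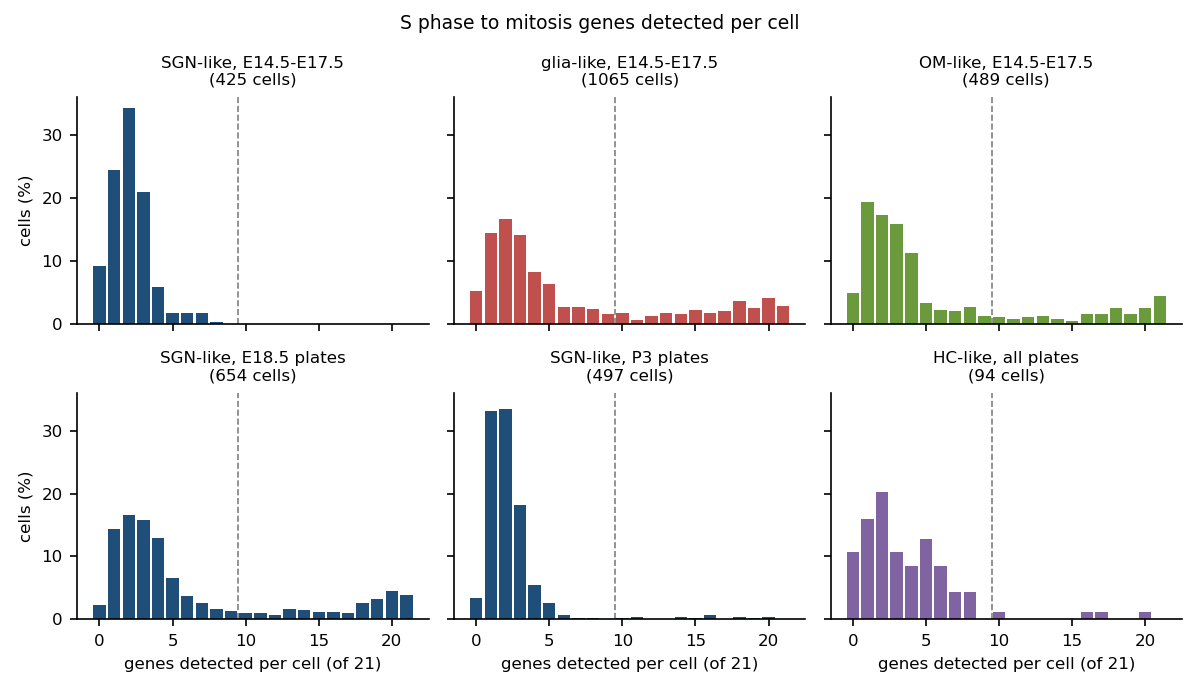
Number of the 21 members of S phase to mitosis with a read per cell after thinning to 100000 reads, as percent of cells, in glia-like, OM-like and SGN-like cells. The dashed line marks 10 members. On the SS2_20 plates glia-like and OM-like cells have a long arm to the right of the line (274 of 1065 and 96 of 489 cells), and SGN-like cells end to its left (0 of 425).

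Within glia-like cells the mitotic genes were found in the same cells. A read of Mki67 was found in 400 glia-like cells and not in 681. Top2a was seen in 75.0% of the first and in 21.4% of the second, Cdk1 in 71.5% and 19.8%, Ccnb1 (cyclin B) in 53.0% and 4.11%, and Bub1 in 54.8% and 3.67%. D-type cyclins did not share this pattern. Ccnd2 was seen in 78.0% of glia-like cells with Mki67 and 90.5% of those without, and Ccnd1 in 70.0% and 73.1%. Cdkn2c went with Mki67, at 35.8% against 5.14%. In OM-like cells (138 with Mki67 and 380 without) Top2a was seen in 72.5% and 17.6%, and Ccnd2 in 87.7% and 92.6%. These are descriptions of cells that share plates and depth, with no test.

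Few members passed the test between mesenchyme and glia. In OM-like against glia-like sums 4 members were lower (5.93% of all genes were called lower) and none was higher (6.78%), 7 had an unadjusted p under 0.05, and the median difference was -0.74 (all genes -0.05). Values were negative for 38 of the 40 members, most of them without a call, and how many of all genes were negative was not counted. Cdk4 differed by -0.30 ± 0.09 (adjusted p = 0.0335), Mcm2 by -0.72 ± 0.21 (0.0237), Mcm6 by -0.58 ± 0.19 (0.0452) and Pcna by -0.80 ± 0.25 (0.0357). On the SS2_20 plates alone Pcna (-0.62) and Mcm2 (-0.67) were lower, where 7.90% of genes were called lower, and Ccnd3 was higher by 1.11 (adjusted p = 6.3e-04, 7.37% called higher). No member passed when any of E14.5 replicate 1, E14.5 replicate 2, E15.5 replicate 1, E15.5 replicate 2, E16.5 replicate 1 or E18.5 replicate 1 was left out, and 1 passed without E18.5 replicate 2.

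Hair cells were compared with neurons in the same fit. The study's text separates vestibular from cochlear hair cells, which was not done here, so HC-like cells may include both. In HC-like against SGN-like sums 5 members were higher, against 13.9% of all genes, and 1 was lower, against 17% of them, so in this fit the share of members called was no larger than that of all genes. With SGN-like cells that carried glial RNA left out on all plates, 13 of the 40 were higher, against 2884 of 16445 genes in all. Ccnd1, Ccnd3, Cdk4 and Cdk2 passed in all 10 fits that left out a plate, on the E18.5 plates alone, and without the SGN-like cells that carried glial RNA. On the E18.5 plates alone, without plate as a block, HC-like cells that carried glial RNA were left out as well. Ccnd3 and Cdk4 then passed and Ccnd1 and Cdk2 did not (adjusted p = 0.1738 and 0.3828). Mcm3 (2.12 ± 0.80, adjusted p = 0.0457) passed in 3 of the 10 and Bub1 (-3.63 ± 1.33, adjusted p = 0.0404) in 4. Without the E17.5 plate 7 members were lower (15.1% of all genes). With the study's glial genes kept for clustering Cdk2 did not pass (1.25 on the log2 scale). Where cells were put into classes by their markers alone, without clusters, Ccnd3 was the 1 member that was higher (11.4% of all genes) and 18 were lower (19%).

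Ccnd1 had 67.9 and 69.1 CPM in the HC-like sums of E18.5 and 12.1 to 221 over all 6, against 16.7 and 18.3 CPM in the SGN-like sums of E18.5. Its difference over all 6 HC-like sums was 2.79 ± 0.45 (adjusted p = 5.3e-05), more than the gap between the E18.5 sums. The 221 CPM stood in E16.5 replicate 3, where HC markers were not the highest list. Ccnd3 had 103 and 82.9 CPM in HC-like and 23.0 and 19.2 CPM in SGN-like sums at E18.5, and a difference of 2.30 ± 0.41 (adjusted p = 1.65e-04), with 1.10 CPM in the 3 cells of E16.5 replicate 2, those with neuronal markers. Cdk4 had 552 and 574 CPM against 318 and 299 CPM at E18.5, and differed by 0.85 ± 0.11 (adjusted p = 3e-06). Cdk2 had 36.3 and 47.6 CPM against 25.5 and 23.0 CPM at E18.5. Over all 6 HC-like sums it differed by 1.97 ± 0.49 (adjusted p = 0.00313), more than the gap between the E18.5 sums. Its level in E16.5 replicate 3 was 112.8 CPM. For each of the 4 genes both HC-like sums of E18.5 were above both SGN-like sums. Ccnd2 had the opposite order at that stage, with 10.52 and 6.15 CPM in HC-like sums against 72.4 CPM in each SGN-like sum. In SGN-like cells of that stage with up to 100 CPM of glial markers its level was below both HC-like sums, as given further on. No order is therefore read for Ccnd2.

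Which members were called between hair cells and neurons changed when cells with glial marker RNA were left out. This also took away most cells of both classes at E18.5, and the part of either in the calls was not tested. HC-like sums of E18.5 held 773.4 to 902.7 CPM of glial markers, and 44 of their 69 cells had more than 100 CPM. On the E18.5 plates alone 5 were higher (27.7% of genes were called higher) and 25 lower (29.3% called lower), among them Mki67 (-4.53), Top2a (-3.81) and Ccnd2 (-3.25). None of the fits on the E18.5 plates alone held plate as a block, although both classes came from the same plates. Once SGN-like cells with glial marker RNA were left out of these 2 plates, a setting chosen after seeing the data, 12 of 37 were higher (30%) and 4 lower (27.4%), with a median of 1.03. The share called higher was close to that of all genes and the share called lower was below it, so neither count is a result about the members. The 12 were Ccnd1 (3.34), Ccnd3 (3.87), Cdk4 (1.07), Cdk6 (2 reads were left in the SGN-like cells, so no fold is given), Cdk2 (5.16), Cdc6 (12 reads, all on 1 of the plates, and no fold is given), Mcm2 (1.40), Mcm3 (3.74), Mcm7 (0.71), Tyms (1.02), Bub1b (1.70) and Cenpf (3.84), and the 4 were Cdc20 (-2.17), Mcm5 (-1.15), Cdkn1a (-1.34) and Cdkn1b (-0.68). Mki67 and Top2a were in neither group. With cells over 100 CPM of glial markers left out of both classes, also chosen after seeing the data, 12 and 13 HC-like cells a plate remained, and 5 of 34 members were higher (19%) and 5 lower (20.2%). Ccnd3 (3.35), Cdk4 (0.90), Cdc6, Mcm2 (1.17) and Cenpf (4.09) were higher, and Cdc20, Cdkn1a (-1.53), Cdkn1b (-1.48), Ccne1 (-2.45) and Rrm2 (-2.76) lower, while Ccnd1 (1.33) and Cdk2 (1.22) did not pass. As above, no fold is given for Cdc6, nor for Cdc20, which was under the floor of 3 counts in the HC-like sums. In HC-like cells of E18.5 Cdc6 was seen in 40.6% of cells, Tyms in 65.2% and Cenpf in 35.9%, but 10 or more of the 21 members in only 3 of 69 cells, all of them with more than 100 CPM of glial markers. The 6 cells of E17.5, with more otic epithelium than HC markers, had 238 CPM of Mki67 and 217 CPM of Top2a, where the other 5 HC-like sums were at 0 to 4.6 and 0 to 31.5 CPM. Only 1 of these 6 cells, with more than 100 CPM of glial markers, had 10 or more of the 21 members. Its part in these levels was not tested.

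The stages of the neurons were compared next. In SGN-like sums between E18.5 and E14.5, 11 of the 40 were higher (14.1% of all genes), 1 was lower (9.59%) and the median difference was 1.58. Age and plate series cannot be told apart between these stages. By the labels 1 E14.5 plate is TrkCcre and the other shares PVcre;Ai14 with E18.5. Over the 12 fits that each left out 1 plate, the TrkCcre plate among them, the median difference was 1.48 to 1.99. If the study's text is right that E14.5 carried the Ntrk3 driver, age and driver cannot be told apart either. The 11 were Ccnd3, Ccne1, Mcm4, Cdc6, Ccna2, Cdk1, Cdc20, Cenpf, Kif11, Cdkn1a and Cdkn2c. Median genes per cell were 9526 and 9630 at E18.5 and 4894 and 4983 at E14.5, and the part of this gap in the result was not tested. Cdk1 was higher by 4.54 ± 1.02 (adjusted p = 0.00943) and Kif11, a spindle motor, by 3.71 ± 0.73 (adjusted p = 0.00459). Without SGN-like cells that carried glial RNA, Kif11, Cenpf, Ccna2, Mcm4 and Ccnd3 turned to negative values, as listed in the last section. With all SGN-like cells, Cdc6 and Cdkn2c had no read in the E14.5 sums and were at least 41.4- and 34.6-fold higher at E18.5, from a floor of 3 counts over the group. Neither was called higher once the cells that carried glial RNA were left out.

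The SGN-like cells with 10 or more of the 21 members were cells with glial markers. At E18.5, 148 of 654 SGN-like cells (a mean of 22.7% over the 2 plates) had 10 or more of the 21 members. All 148 were among the 452 cells with more than 100 CPM of glial markers (32.7%, exact 95% binomial interval 28.4 to 37.3), and none among the 202 cells with less (a share of up to 1.49% is allowed). At P3 the numbers were 14 of 379 cells (3.69%, 2.03 to 6.12) and 0 of 118 (up to 2.54%). On the SS2_18 plates of E16.5 they were 53 of 199 cells (26.6%, 20.6 to 33.4) and 0 of 513 (up to 0.585%), and on the SS2_20 plates 0 of 52 and 0 of 373. Median reads per cell were close in both parts at E18.5, 357651 and 334244. Intervals and limits cover counting error only.

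**Figure D4:**
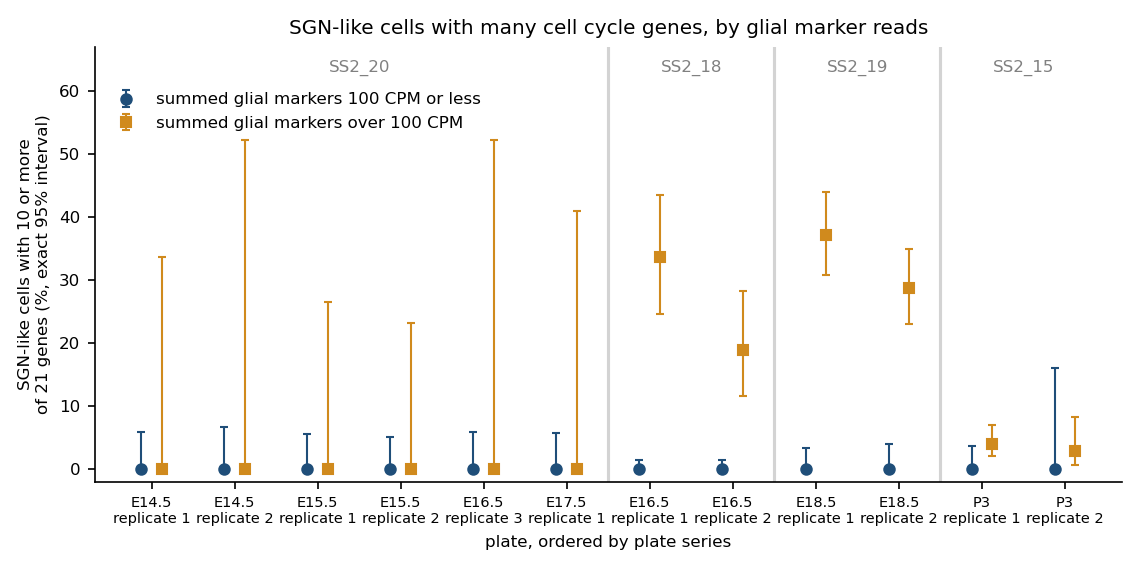
Percent of SGN-like cells of each plate with 10 or more of the 21 members, for cells with up to 100 CPM and with more than 100 CPM of summed glial markers, with exact 95% binomial intervals. Cells with fewer glial marker reads are at 0 on every plate, and cells with more are above 0 on the E18.5, P3 and SS2_18 plates but not on the SS2_20 plates.

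Single members divided in the same way at E18.5. Mki67 was seen in 2.54% of SGN-like cells with up to 100 CPM of glial markers and in 38.7% of those with more, Ccnd2 in 8.26% and 82.6%, Cdk2 in 2.63% and 63.6%, and Top2a in 2.91% and 41.5%. Over all SGN-like cells of E18.5 Otof had a read in 10.71% and Pou4f3, Gfi1 and Atoh1 in 0.306% to 0.614%, so the lower share of each of these 4 members lies below the first and above the others and is not read as expression. Ccnd2 had 3.53 CPM in the first and 101 CPM in the second. Other genes were less divided: Cdk4 had 232 and 335 CPM, Mcm6 78.5 and 138 CPM, and Ccne1 18.4 and 20.5 CPM. Cdkn1a and Cdkn1b were the other way round, with 218 and 145 CPM for Cdkn1a and 47.9 and 36.7 CPM for Cdkn1b. Why reads of glial markers and of cycle genes stood in the same wells was not tested.

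Without SGN-like cells that carried glial RNA, E18.5 against E14.5 gave 2 members higher (12.4% of genes called higher) and 6 lower (8.58% called lower) of 39 tested, with a median of -1.01. Cdkn1a (2.12, adjusted p = 1.9e-04) and Ccne1 (1.44) were higher. Cdk4 (-1.17), Mcm2 (-1.12), Mcm3 (-3.91), Mcm7 (-1.77), Tyms (-1.12) and Ccnb2 (-3.02) were lower. Cdk4, Cdkn1a and Ccne1 were thus called in the same direction with and without these cells. With all cells, Cdk4 differed by -0.82 ± 0.10 (adjusted p = 2.52e-04) and Cdkn1a by 1.74 ± 0.25 (adjusted p = 7.57e-04), and both passed in all 12 fits that left out a plate. The number of members called higher moved when 1 plate was left out, to 17 without E16.5 replicate 3, a fit for which the share of all genes is not given.

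From E18.5 to P3, 12 members fell in SGN-like sums (11.9% of all genes called lower) and 1 rose (12.7% called higher), with a median of -1.96. Of the licensing factors Mcm2, Mcm4, Mcm5, Mcm6 and Mcm7 were lower, Mcm6 by -1.18 (adjusted p = 1.6e-04) and Mcm7 by -1.98. Cdk4 (-0.72), Tyms (-1.14), Plk1 (-2.62), Cdc20 (-1.98), Cenpa (-2.29), Cenpf (-3.63) and Kif11 (-2.46) were lower too. Cdkn1b was higher by 1.25 ± 0.28 (adjusted p = 0.00761), at 89.0 and 103 CPM at P3 against 42.9 and 38.8 CPM at E18.5. Without cells with glial RNA, 9 of 39 were lower (12.2%) and none higher (11%), with a median of -1.11, and Cdk4 (-1.04) and Mcm6 (-0.88) were still among them. Mcm4 turned to a positive value there. Leaving out P3 replicate 2, E18.5 replicate 1 or E18.5 replicate 2 left fewer members called lower, and Cdkn1b then did not pass.

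Within the SS2_20 plates the plate series does not differ, but the driver does: 1 plate of E14.5 is TrkCcre by its label, and the study's text, unlike the label of the other plate, gives the Ntrk3 driver for the whole age. On these plates 2 of 37 members changed with embryonic day in SGN-like sums (5.60% of all genes), and 8 had an unadjusted p under 0.05. The share of members called was no larger than that of all genes, so the count is not a result about the members. DESeq2 called 5 (11.5%). Cdk4 fell by 0.35 ± 0.04 a day on the log2 scale (adjusted p = 0.00419). Its level was 540.2 and 518 CPM at E14.5, 380.3 and 429 at E15.5, 326 at E16.5 and 248 at E17.5, and it passed in 5 of 6 fits that left out a plate, the exception being E17.5. Cdkn1a rose by 0.59 ± 0.13 a day (adjusted p = 0.033), from 62.3 and 37.1 CPM at E14.5 and 39.2 and 52.6 at E15.5 to 109 at E16.5 and 156 at E17.5. It passed in only 2 of the 6. On the other plates Cdk4 was at 325 and 309 CPM at E16.5, 318 and 299 at E18.5 and 179.9 and 191 at P3, and Cdkn1a at 93.2 and 106, 185 and 155, and 243 and 177. In the SGN-like cells with up to 100 CPM of glial markers Cdk4 had 232 CPM at E18.5 and 94.7 at P3, and Cdkn1a 218 and 176.

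In glia-like sums 7 members changed with day, all downwards, where 0.514% of all genes were called lower. They were Rrm2 and all 6 MCM subunits, and 14 members had an unadjusted p under 0.05. DESeq2 called 11 members (5.41% of all genes in either direction). Mcm6 had 472 and 484 CPM at E14.5, 425 and 378 at E15.5, 345 at E16.5 and 259.6 at E17.5, a slope of -0.28 ± 0.04 a day (adjusted p = 0.0226). Mcm5 had 386 and 355 CPM, 265 and 289.5, 255 and 170.4 at the same stages, a slope of -0.34 (adjusted p = 0.0207), and Rrm2 165 and 193, 119.5 and 169, 85.1 and 67.2, a slope of -0.49 ± 0.08 (adjusted p = 0.0226). E17.5 was the lowest plate for all 3. Its glia-like cells also held the most OM marker RNA, a mean of 6534 CPM summed against 3411 to 3859 CPM on the other 5 plates, and the part of this in the slopes was not tested. Mki67 showed no such order, at 291 and 310.5, 381 and 405, 288 and 278 CPM. The 7 calls fell to 0 without E14.5 replicate 2, the TrkCcre plate, or without E17.5, to 1 without E14.5 replicate 1 and to 4 without E15.5 replicate 1.

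Mesenchyme did not show a called change: in OM-like sums 0 of the 40 passed edgeR's test for day (0.0352% of all genes), with 10 at an unadjusted p under 0.05 and 3 called by DESeq2 (1.94% of all genes). The slopes themselves were compared between classes. Glia-like minus SGN-like slopes gave 0 members (0.323% of genes), 7 at an unadjusted p under 0.05 and 3 by DESeq2 (4.87% of genes), and glia-like minus OM-like slopes 0 (0% of genes), with 10 and 2 (1.88% of genes). By edgeR no fall in glia was thus shown to differ from the other classes.

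**Figure D5:**
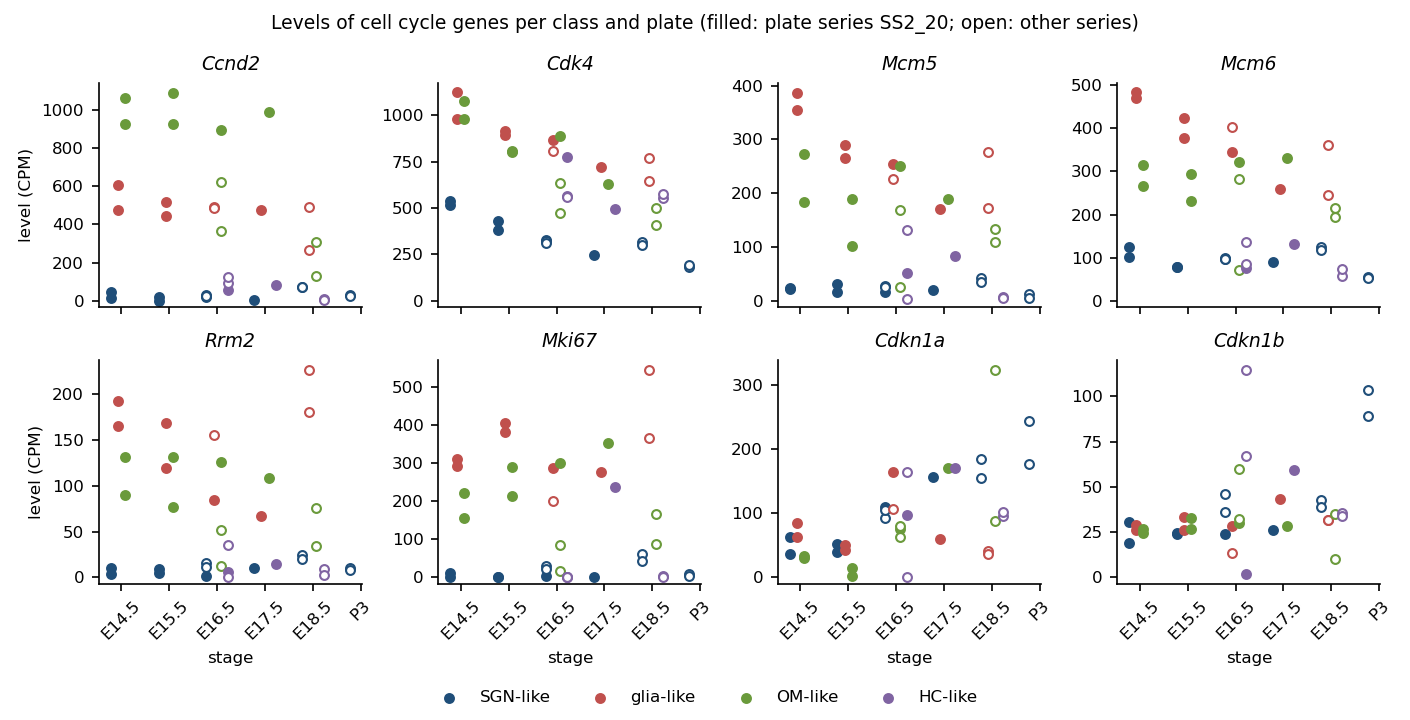
Level in CPM of Ccnd2, Cdk4, Mcm5, Mcm6, Rrm2, Mki67, Cdkn1a and Cdkn1b in each class sum by stage, one symbol per plate, filled for SS2_20 and open for other plate series. Cdk4 in SGN-like sums goes from 540.2 and 518 CPM at E14.5 to 179.9 and 191 CPM at P3, and Mcm6 in glia-like sums from 472 and 484 CPM at E14.5 to 259.6 CPM at E17.5.

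Other cell cycle genes of the table, listed from textbook knowledge, were read against the members. In glia 22.2% of all genes were called higher and 21.6% lower than in neurons, and in OM 19.6% were called higher. Of 54 other G2/M genes 52 were higher in glia-like than in SGN-like sums (median 3.79), with Gas2l3 (4.94), Pbk (4.82) and Hmmr (4.67) highest, and 51 in OM-like sums. Of 49 other S phase genes 44 were higher in glia and 35 in OM, led in both by Exo1 (5.95 in glia, 4.81 in OM), an exonuclease of DNA repair. Of 12 genes of the RB and E2F family 6 were higher in glia, E2f8 most (5.27). Of 9 other inhibitors and anti-proliferative genes tested, 4 were higher in glia and 2 lower, the latter a share near that of all genes. Cdkn1c, an inhibitor related to Cdkn1a and Cdkn1b, was lower in glia than in neurons by -2.31 ± 0.36 (adjusted p = 1.4e-05), and higher in OM than in glia by 2.78 ± 0.37 (adjusted p = 2.7e-05). In glia-like sums 5 of the 49 S phase genes and no inhibitor fell with day (0.514% of all genes), and 1 of the 54 G2/M genes, Gas2l3, rose by 0.65 a day (adjusted p = 0.0114, 0.740% of all genes rose).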

How the data were processed

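Smart-seq2 read counts of 12 plates of sorted mouse cochlear cells were used as the authors deposited them: whole-number counts per gene and well, not normalized, with 92 spike-in columns. Per the study's methods the authors mapped reads to mm10 with STAR and kept uniquely mapped reads. The strand setting is not given in the sources used here. A plate of 384 wells with no sample label was not used.

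Wells with at least 1000 genes and at most 5% spike-in reads were kept. Cells were clustered per stage, with E17.5 and E18.5 merged (Scanpy 1.11.5; 2000 variable genes, 30 components, Leiden resolution 1), with 165 cell cycle genes and the study's own list of glial genes set aside. Marker lists gave each cluster its name, and the naming rule was revised once after the cluster tables had been seen. No doublet caller was run. Counts were summed per class and plate (at least 5 cells, 3 for HC-like) and tested with edgeR 4.0.16 (TMM, filterByExpr, quasi-likelihood, Benjamini-Hochberg over all genes tested) in R 4.3.3, after tests on simulated data. DESeq2 1.42.0 was an alternative. Class comparisons held plate as a block because classes share plates, except those on the E18.5 plates alone, which had no block. Over 18 pairs of class sums the same-plate correlation of deviations was -0.017 to 0.071. Day was a number on the SS2_20 plates, and stage a group over all 12. P-values measure spread between plates, which may be technical. Total reads were 80997594 to 303906928 per plate, and a floor of 3 counts in a sum was at most 0.19 CPM for SGN-like, 1.98 for glia-like, 1.95 for OM-like and 3.71 for HC-like sums.

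Members and gene lists were chosen with earlier results of these data known. Plate values are given for the 2 genes of each role with the highest mean CPM, all D-type cyclins and all inhibitors, and other members by counts, ranges or a called change. Of the other lists at most 3 called genes with the largest change are named. Mki67 co-detection, hair cell markers and the cells with glial reads were described beyond that rule.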

Additional observations from a re-analysis of the deposited data

Results flagged for a closer look

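Of 156 groups of 4 to 10 plates, 25 held a plate whose gap to the nearest other plate was large for the range of the group. The limit used is one that chance passes in about 1 in 20 independent groups. These groups are not independent, since many share a plate, so the 25 are not read against that rate. In HC-like sums E17.5 stood above the other 5 for Ccna2 (91.1 CPM), Cdk1 (98.1 CPM), Bub1b (81.3 CPM), Cdc20 (46.3 CPM), Mki67 (237.5 CPM), Top2a (217.2 CPM) and Cdkn2c (35.7 CPM and 16.7% of cells). E16.5 replicate 3 stood apart for Ccnd1 (221.0 CPM), Cdk2 (112.8 CPM) and Cdk4 (777.0 CPM, with a read in 90.0% of cells). Both are among the HC-like sums in which HC markers were not the highest list.

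In OM-like sums E17.5 stood apart for Cdkn2c (26.1 CPM, 19.5% of cells), for the share of cells with Cdk4 (95.1%) and for that with Rrm2 (14.6%). In glia-like sums Ccnd3 was highest in E14.5 replicate 1 (130.9 CPM) and Cdkn1a in E16.5 replicate 3 (163.9 CPM). In SGN-like sums Ccnd1 was highest in E14.5 replicate 2 (20.1 CPM), Cdk2 (20.8 CPM) and Mki67 (11.8 CPM) in E14.5 replicate 1, Bub1b in E15.5 replicate 1 (19.5 CPM, 12.99% of cells) and Cdkn2c in E15.5 replicate 2 (0.38 CPM, 1.18% of cells).

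Clusters outside the 4 classes also held cells with 10 or more of the 21 members of S phase to mitosis. They are called here by their leading genes and left unnamed. A cluster of 54 cells of E14.5 led by Acta2, Lyz2 and Myog had 5 such cells (9.26%, exact 95% binomial interval 3.08 to 20.3). Among cells of the latest embryonic plates (E17.5, E18.5), the 28 of a cluster led by Olig2, Dct and Ptgds included 10 that reached 100000 reads, and 4 of these 10 were such cells (40%, 12.2 to 73.8). Clusters of 13 cells each, led by Oc90 and Vmo1 at E14.5 and by Insl6 and Zpld1 at E15.5, had 6 of 26 between them (23.1%, 8.97 to 43.7).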

How the results depend on the processing

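The counts of called members in glia-like and in OM-like against SGN-like sums stayed within 1.5 times under every alternative run. Counts in the main direction that moved further were as follows. The shares of all genes in these fits are not given in this list, so the counts show only how far the calls moved. For OM-like against glia-like sums (4 lower), 10 cells per sum gave 2, cell cycle genes kept for clustering 2, glial genes kept 0, classes by markers per cell 0, the most-read cells left out 1, the SS2_20 plates alone 2, and leaving out 1 plate 0 to 4. For HC-like against SGN-like sums (5 higher), glial genes kept gave 3, markers per cell 1, SGN-like cells with glial RNA left out 13, the same on E18.5 alone (chosen after seeing the data) 12, and leaving out 1 plate 4 to 5. The 1 member lower there became 4 by DESeq2, 6 with 10 cells per sum, 18 by markers per cell, 25 on E18.5 alone and 0 to 7 without 1 plate. For slopes, DESeq2 gave 5 in SGN-like, 11 in glia-like and 3 in OM-like sums, and 3 and 2 for the differences of slopes. The SGN-like count was 1 with glial genes kept, 6 over all embryonic plates and 0 to 2 without 1 plate, and the glia-like count 0 to 7 without 1 plate. For E18.5 against E14.5 (11), markers per cell gave 7, glial RNA left out 2 (and 6 lower, where 1 was) and leaving out 1 plate 6 to 17. For P3 against E18.5 (12), DESeq2 gave 19 and leaving out 1 plate 5 to 18. The median for E18.5 against E14.5 turned to -1.01 with glial RNA left out.

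Members that changed sign and were called in the main fit, in the alternative or in both were these. A value printed here therefore need not have passed the test itself. In HC-like against SGN-like sums, markers per cell gave Mcm3 -2.45, Ccnd2 -4.22, Mcm5 -3.02 and Cdk1 -2.66. E18.5 alone gave Cenpf -1.17, Mcm3 -1.70, Pcna -0.67, Ccnd2 -3.25, Mcm5 -2.78 and Cdk1 -3.07, and with glial RNA left out too Bub1b 1.70, Tyms 1.02, Cdkn1b -0.68 and Mcm5 -1.15, and with glial RNA left out of both classes (chosen after seeing the data) Cdkn1b -1.48. Glial RNA left out on all plates gave Bub1 0.66, Top2a 3.14 and Birc5 2.39. In E18.5 against E14.5 it gave Cenpf -1.66, Mcm3 -3.91, Ccna2 -1.20, Mcm2 -1.12, Ccnb2 -3.02, Mcm4 -0.32, Ccnd3 -1.01 and Kif11 -0.76, and in P3 against E18.5 Mcm4 0.29. The cause was not tested.

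Without the replicate block of plates the calls were 38 in glia-like, 36 in OM-like and 5 in HC-like against SGN-like sums, 3 in OM-like against glia-like sums and 0 for both differences of slopes, so the block moved no count over 1.5 times.

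HC-like cells number 95, and most sums outside E18.5 hold 3 to 11 cells, so hair cells before E18.5 are not described by these data. E18.5 and P3 cannot be told apart from their plate series. Classes were rebuilt from markers and may differ from those of the study.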
